A study of Mus musculus with 4 samples.

Results

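The Hox genes are described here along their 4 clusters in neural precursors with and without knockdown of Geminin. The members were taken by name from the deposited tables, whatever their values, and ordered by cluster and by paralog number; they are 38 of the 21690 features measured. RNA had been sequenced from precursors that were derived from mouse embryonic stem cells of the A2lox line and cultured in a monolayer with N2B27, a medium that contains no serum. All 4 libraries come from cells that carry a doxycycline-inducible knockdown of Geminin, a small nucleoprotein that restrains replication licensing, and all were harvested on day 5. The 3 knockdown libraries received 500 ng doxycycline from day 3 and come from independent experiments, and they are called knockdown libraries 1, 2 and 3. The control is 1 library without doxycycline. Cells that received the drug without carrying the construct were not analysed here, so the drug and the knockdown cannot be told apart. How many clones the cells represent is not stated in the labels.

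Hox genes encode homeodomain transcription factors that give cells their position along the head-to-tail axis. In mouse they lie in 4 clusters on different chromosomes, and genes that hold the same place in different clusters share a paralog number. Low numbers lie at the 3′ end of a cluster and are active early and as far forward as the hindbrain, while higher numbers come on later and further back, in the spinal cord and tail. Retinoic acid, Wnt and FGF signals open the clusters from the 3′ end, Polycomb complexes keep them silent, and the cofactors of the PBX and MEIS families bind DNA together with Hox proteins.

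In the files the Hoxa members lie on chromosome 6 from 52112510 to 52210874, the Hoxb members on chromosome 11 from 96055675 to 96229567, the Hoxc members on chromosome 15 from 102751562 to 102867283 and the Hoxd members on chromosome 2 from 74506367 to 74603199 (mm9). Levels are FPKM, fragments per kb of exon scaled to the mapped fragments of the library, so they can be compared between genes. Counts are not given, and the steps between low values put the depths of knockdown libraries 1, 2 and 3 at 1.00, 1.15 and 0.972 times that of the control. Gmnn, which encodes Geminin, had 27.0, 65.9 and 27.9 FPKM in knockdown libraries 1, 2 and 3 against 113 in the control, which is 24.0%, 58.4% and 24.7% of the control. Knockdown library 2 thus kept the most Gmnn, and Gmnn was not marked in that library (q = 0.0722 in the authors' deposited table), while it was marked lower in libraries 1 and 3. The precursor markers Sox1, Sox2, Pax6 and Nes were present in all 4 libraries. Sox1 had 63.8, 42.5 and 48.8 FPKM against 64.0, while Sox2 had 140, 203 and 154 against 135 and Nes had 106, 125 and 113 against 100. Over the 11 precursor markers listed, the median log2 difference (log2(FPKM + 1) scale) was -0.004, 0.43 and 0.08 in knockdown libraries 1, 2 and 3.

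Of the 15 Hox members in the middle of the clusters (paralogs 4 to 8), 9 could be called by the study's rule. Of these 9, 7 rose, against 1.98% of all features that could be called. The 7 were marked in knockdown libraries 2 and 3, and 0 members were marked in knockdown library 1. The limma test over all libraries called 0. The summed level of the 38 members was 80.0, 202 and 139 FPKM in knockdown libraries 1, 2 and 3 against 84.1 in the control. In the control, paralogs 1 to 3 made up 92.0% of that sum and paralogs 4 to 8 made up 6.94%. The share of paralogs 4 to 8 was 8.20% in knockdown library 1, 42.4% in library 2 and 42.5% in library 3. The mean paralog number weighted by FPKM was 2.40 in the control and 2.55, 3.51 and 3.59 in the 3 knockdown libraries. Members at 1 FPKM or more numbered 6 in the control and 9, 14 and 16 in knockdown libraries 1, 2 and 3.

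**Figure D1:**
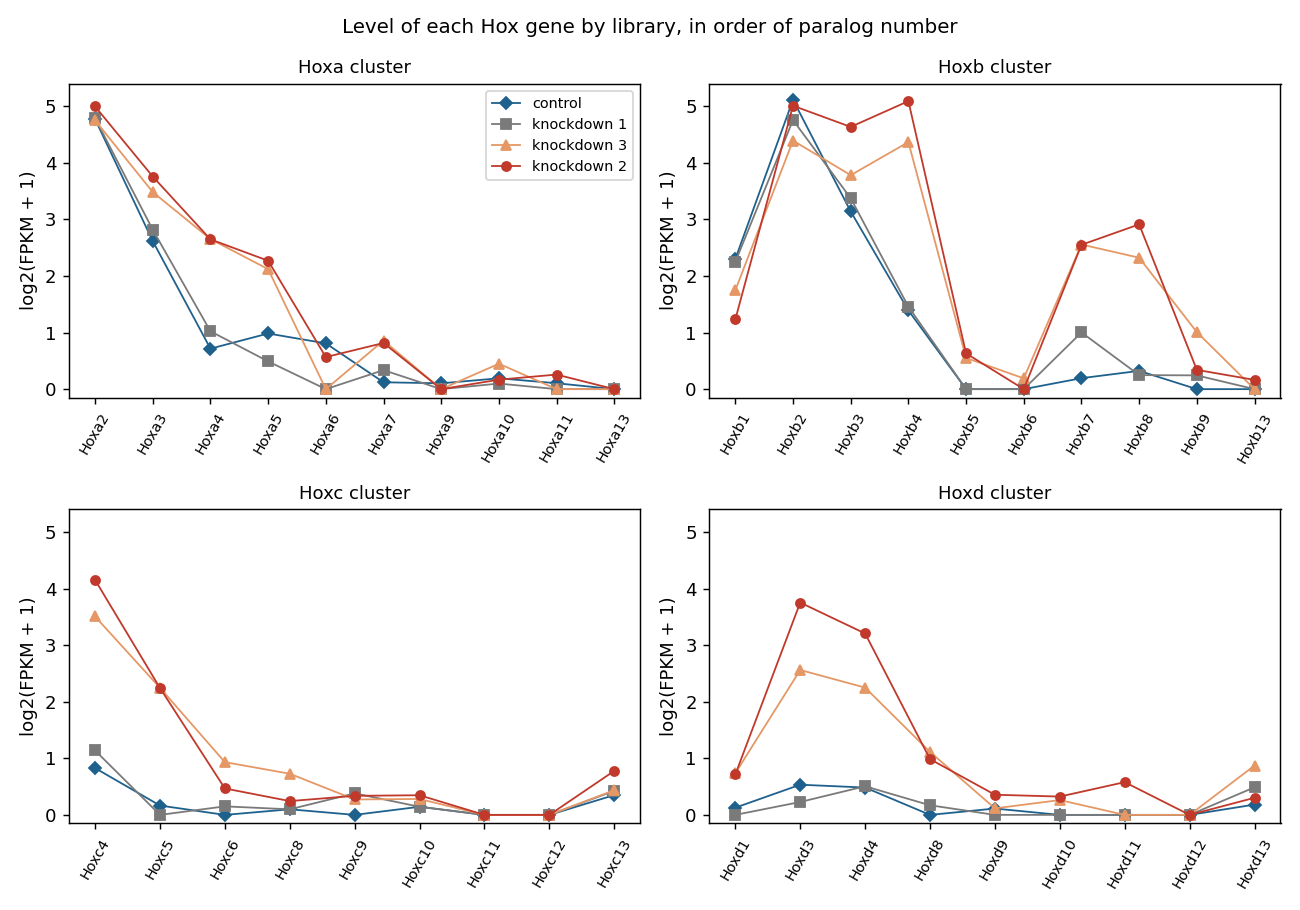
Level of each Hox gene on the log2(FPKM + 1) scale in the control and in knockdown libraries 1, 2 and 3, with 1 panel per cluster and genes in order of paralog number; each point is 1 library and lines join points for reading. Knockdown libraries 2 and 3 stand above the control from Hoxb3 to Hoxb4, at Hoxc4, Hoxc5, Hoxd3 and Hoxd4, and at Hoxb7 and Hoxb8, while Hoxa2 and Hoxb2 lie close together in all 4 libraries.

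In the study's own rule a gene is called when the authors' deposited tables, each of which sets 1 knockdown library against the control, mark it in at least 2 of 3 tables in the same direction and in none in the other (Cuffdiff q-value under 0.05). By this rule 8 of the 38 members rose, 0 fell, 7 were tested without a call and 23 were too low to be called. Of the 15 that could be called, therefore, 8 rose, while over all features that could be called 1.98% rose and 0.905% fell. The 8 were Hoxa4, Hoxb4, Hoxb7, Hoxb8, Hoxc4, Hoxc5, Hoxd3 and Hoxd4, and their paralog numbers run from 3 to 8. The authors' deposited tables marked 0 members higher in knockdown library 1, 9 in library 2 and 8 in library 3, where 0.909%, 3.23% and 3.33% of the tested features were marked higher. No member was marked lower in any of the 3 tables. Every call rests on knockdown libraries 2 and 3 together, so without either of them 0 members were called, and the 3 tables share their control.

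A second test used the spread between the knockdown libraries. With limma on log2(FPKM + 1), 0 of the 14 members with a mean of at least 1 FPKM passed in either direction, 0 had an unadjusted p under 0.05, and the adjusted p was 0.993 for each, against 0.0247% of all features called higher. The test has 2 residual degrees of freedom and an unreplicated control, and in the called genes knockdown library 1 lay far below libraries 2 and 3. Hoxb4, for example, had a log2 difference of 2.25 with a standard error of 1.53. All 3 knockdown values lay above the control in 14 of the 34 members that were above 0 in some library, against 20.6% of all such features, and 4 of the 34 lay below it in all 3, against 21.9%. These shares are not fully alike, since a gene at 0 in the control cannot lie below it. The control was 0 in 13 of the 38 members, 4 of them at 0 in every library, and in 1761 of the 17153 features above 0. Hoxb9, Hoxc6, Hoxc9 and Hoxd8, among the 14, lay above a control of 0.

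Among paralog numbers 1 and 2, genes of the anterior hindbrain, Hoxa2 and Hoxb2 had the highest levels of all members in the control. Hoxb2 had 26.0, 31.2 and 20.02 FPKM in knockdown libraries 1, 2 and 3 against 33.6 in the control. Hoxa2, which patterns the second branchial arch and its hindbrain segment, had 26.7, 30.9 and 25.9 FPKM against 26.3. Neither was marked in any table: for Hoxa2 the control lay within the knockdown range, and for Hoxb2 it lay above all 3 knockdown libraries. Hoxb1, the gene of the fourth hindbrain segment, had 3.75, 1.35 and 2.36 FPKM against 3.92. All 3 of its values were below the control, and none was marked (q-values of 0.997, 0.189 and 0.727 in the authors' deposited tables). Hoxd1 was at 0, 0.641 and 0.665 FPKM against 0.0924 and was too low for a test.

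Paralog number 3 marked the step from these genes to the middle of the clusters. Hoxb3 had 9.37, 23.9 and 12.8 FPKM in knockdown libraries 1, 2 and 3 against 7.82 in the control. All 3 values lay above the control, by 1.198-fold, 3.05-fold and 1.63-fold. The authors' deposited table marked Hoxb3 in knockdown library 2 (q = 6.15e-06) and not in library 3 (q = 0.23), so it was not called. Hoxa3 had 6.05, 12.5 and 10.2 FPKM against 5.13, and its q-values of 0.052 in library 2 and 0.208 in library 3 in the authors' deposited tables missed the threshold. Hoxd3 had 0.171, 12.5 and 4.90 FPKM against 0.447 and rose. Knockdown library 1 was below the control and libraries 2 and 3 were above it, with log2 differences of -0.30, 3.22 and 2.03. Hoxd3, which lies on chromosome 2, shares its locus in the files (74548101 to 74586328) with Hoxd4, and Hoxa3 to Hoxa6 share another (chromosome 6, 52119062 to 52163596), so fragments in these loci may have been split between the genes.

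All 4 members of paralog number 4, genes of the posterior hindbrain and upper neck, rose. Hoxb4, on chromosome 11 from 96179581 to 96182951, had 1.75, 33.1 and 19.6 FPKM in knockdown libraries 1, 2 and 3 against 1.62 in the control. Library 1 was at 1.08 times the control, while library 2 was 20.4-fold and library 3 was 12.1-fold higher. The q-values in the authors' deposited tables were 0.989 in library 1, listed as 0 in library 2 and 2.15e-10 in library 3. In library 2 Hoxb4 was above Hoxa2 and Hoxb2, the most abundant members of the control, and in library 3 it was below both. Hoxc4, on chromosome 15 from 102864826 to 102867283, had 1.202, 16.8 and 10.4 FPKM against 0.775, with q-values of 0.756, 1.01e-09 and 1.66e-06 in the authors' deposited tables. Hoxd4 had 0.420, 8.23 and 3.75 FPKM against 0.398. Hoxa4 had 1.03, 5.27 and 5.29 FPKM against 0.642. In each of the 4 genes the control was the lowest of the 4 libraries, although the excess of knockdown library 1 was small, with log2 differences from 0.02 for Hoxd4 to 0.32 for Hoxa4. The summed level of the 4 genes was 4.40, 63.4 and 39.0 FPKM against 3.44.

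The RefSeq promoter table (GRCm38.p6, 250 bases before to 50 after each listed start) held 24 windows for 22 of the 38 members, among them 5 of the 8 called genes. Those of Hoxb4, Hoxc4 and Hoxd4 are shown because these genes of the same paralog number rose together, and that of Hoxb8 because it stands further along its cluster. Each is given 5′ to 3′ on the plus strand, with capitals for matches on either strand to TATAAA (the TATA box), CCAAT (the CCAAT box), TGATNNAT (a site of PBX with Hox proteins), TTTATG (a CDX site) and AGGTCA (the hexamer bound by retinoic acid and other nuclear receptors). The window of Hoxb4 is chr11:96318017-96318316, that of Hoxc4 chr15:103034145-103034444, that of Hoxd4 chr2:74721728-74722027 and that of Hoxb8 chr11:96281655-96281954.
Hoxb4: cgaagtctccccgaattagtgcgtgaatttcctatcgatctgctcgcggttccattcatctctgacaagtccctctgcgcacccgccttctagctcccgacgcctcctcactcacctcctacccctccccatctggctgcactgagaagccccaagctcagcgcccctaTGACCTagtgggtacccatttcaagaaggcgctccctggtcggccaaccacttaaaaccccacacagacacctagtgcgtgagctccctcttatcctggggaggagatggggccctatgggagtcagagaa
Hoxc4: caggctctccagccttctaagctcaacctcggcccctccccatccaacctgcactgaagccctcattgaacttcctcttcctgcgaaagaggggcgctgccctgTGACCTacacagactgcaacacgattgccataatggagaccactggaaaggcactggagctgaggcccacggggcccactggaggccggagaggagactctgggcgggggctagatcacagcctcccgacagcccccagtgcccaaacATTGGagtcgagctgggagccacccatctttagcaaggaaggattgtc
Hoxd4: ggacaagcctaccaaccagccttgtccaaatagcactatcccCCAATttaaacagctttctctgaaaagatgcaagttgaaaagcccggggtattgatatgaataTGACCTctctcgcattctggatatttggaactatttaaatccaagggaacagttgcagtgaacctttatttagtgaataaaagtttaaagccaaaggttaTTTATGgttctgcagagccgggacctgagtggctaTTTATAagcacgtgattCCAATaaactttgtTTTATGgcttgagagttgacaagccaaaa
Hoxb8: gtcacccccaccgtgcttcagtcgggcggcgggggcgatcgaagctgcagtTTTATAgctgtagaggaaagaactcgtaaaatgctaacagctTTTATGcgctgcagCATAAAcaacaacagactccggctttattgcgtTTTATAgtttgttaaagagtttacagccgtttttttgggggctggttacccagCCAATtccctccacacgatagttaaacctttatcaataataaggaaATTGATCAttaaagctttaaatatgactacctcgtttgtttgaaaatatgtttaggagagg
AGGTCA, as TGACCT on the strand shown, stood in the windows of Hoxb4, Hoxc4 and Hoxd4 and also in that of Hoxd3, where it overlaps a TTTATG match, but not in that of Hoxb8. It was found in 7 of the 24 Hox windows and in 16.3% of all 32851 promoter windows. Those of Hoxa5, Hoxd8 and Hoxd10, which were not called, were among the 7. A direct repeat of AGGTCA with 5 bases between its copies was in 0 of the 24 and in 0.00913% of all. TTTATG was in 5 of the 24 Hox windows and in 11.9% of all, and TGATNNAT was in 4 of the 24 and 8.85% of all. The windows with TTTATG were those of Hoxd3, Hoxd4 and Hoxb8, which rose, and of Hoxa7 and Hoxd11, which were not called. TATAAA was in 4 of the 24 and in 13.6% of all, and CCAAT was in 15 of the 24 and in 37.4% of all. The Hox windows held a median of 14.5 CpG pairs, against 7 over all windows. A match is a description of the letters and shows no binding.

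Within paralog numbers 5 to 8, genes of the neck and trunk spinal cord, the higher genes did not form an unbroken run. Hoxc5 had 0, 3.73 and 3.74 FPKM in knockdown libraries 1, 2 and 3 against 0.121 in the control, and it rose. Hoxb7, on chromosome 11 from 96147960 to 96151477, had 1.00, 4.86 and 4.88 FPKM against 0.144, and it rose as well. Its knockdown library 1 was above the control too, but was too low for a test there. Hoxb8, on chromosome 11 from 96143219 to 96146639, had 0.188, 6.53 and 4.00 FPKM against 0.251. It rose, with the control inside the range of the knockdown libraries and q-values of 2.44e-07 and 5.14e-05 for libraries 2 and 3 in the authors' deposited tables. Between Hoxb4 and Hoxb7 on the same chromosome, Hoxb5 had 0, 0.549 and 0.466 FPKM and Hoxb6 had 0, 0 and 0.141, against 0 for both genes in the control.

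**Figure D2:**
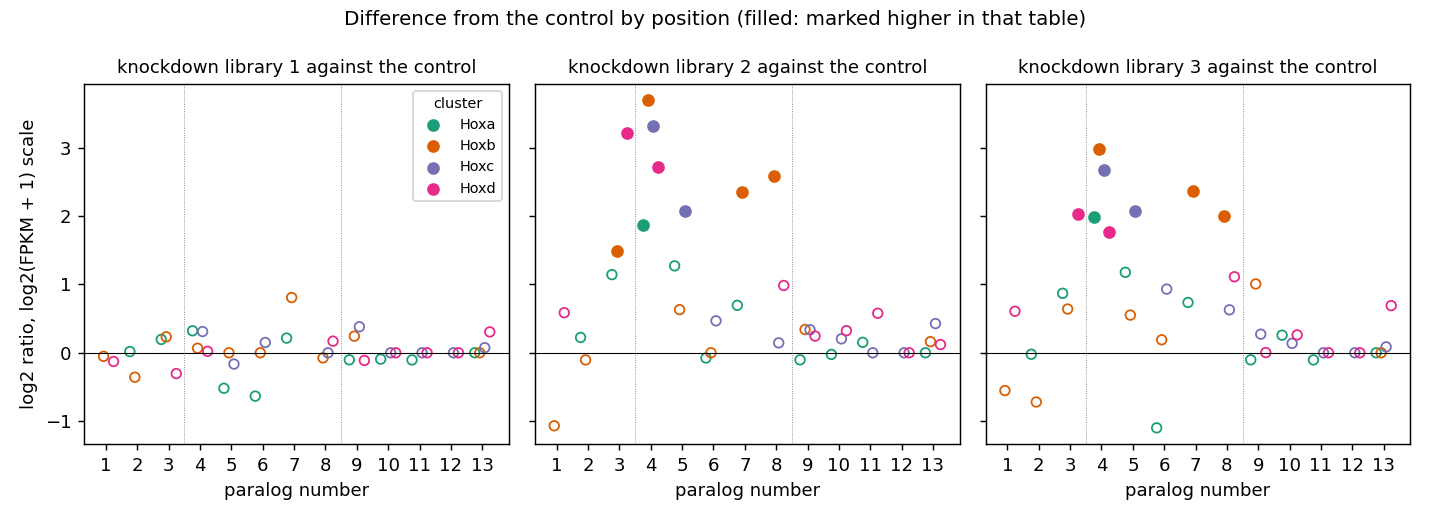
Log2 difference of each Hox gene from the control (log2(FPKM + 1) scale) against paralog number, with 1 panel per knockdown library; each point is 1 gene, coloured by cluster and shifted slightly sideways, filled where that table marked it higher, and dotted lines part paralogs 1 to 3, 4 to 8 and 9 to 13. Filled points appear in libraries 2 and 3 between paralog numbers 3 and 8, and library 1 has 0.

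Paralog number 6 was also low in the other clusters that carry it, though not at the same level. Hoxa6 was listed at 0, 0.481 and 0 FPKM in knockdown libraries 1, 2 and 3 against 0.752. That control level is the mean of 0.553, 0.561 and 1.14, listed in the comparisons with libraries 1, 2 and 3. Hoxa6 shares its locus with Hoxa3, Hoxa4 and Hoxa5, where a listing at 0 can be a failed estimate. Hoxc6 was at 0.110, 0.383 and 0.908 FPKM against 0. The summed level of the 3 genes with number 6 was 0.110, 0.864 and 1.05 FPKM against 0.752, while that of number 5 was 0.405, 8.10 and 7.56 against 1.10 and that of number 7 was 1.27, 5.62 and 5.69 against 0.231. Hoxa5 had 0.405, 3.82 and 3.35 FPKM against 0.977, with q-values of 0.084 and 0.133 in libraries 2 and 3 in the authors' deposited tables, and was not called. Hoxa7 reached 0.760 and 0.812 FPKM in libraries 2 and 3 against 0.0877, and Hoxd8 reached 0.979 and 1.16 against 0. Both were higher in all 3 knockdown libraries than in the control and too low to be called.

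**Figure D3:**
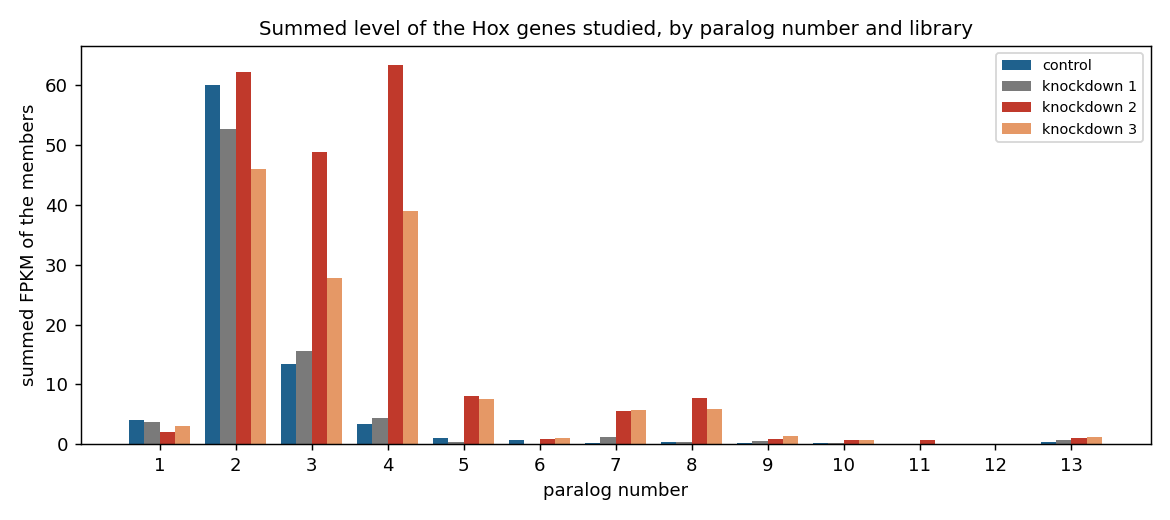
Summed FPKM of the members among the 38 that have each paralog number (1 to 13) in the control and in knockdown libraries 1, 2 and 3, as bars from 0. Paralog number 2 is high in all 4 libraries (45.9 to 62.1 FPKM), number 4 stands out in libraries 2 and 3 (63.4 and 39.0 against 3.44), and numbers 9 to 13 are near 0.

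Paralog numbers 9 to 13, which pattern the lower trunk, tail, limb ends and genital region, were low in every library. None of these 16 members could be called, their highest FPKM was 0.275 in the control and 0.402, 0.715 and 1.01 in knockdown libraries 1, 2 and 3, and Hoxa13, Hoxc11, Hoxc12 and Hoxd12 were listed at 0 in all 4. Low FPKM values move in steps of whole reads, and the smallest whole numbers that match the ratios between the libraries were taken for the members where they exist. For Hoxa10 these are 1, 2 and 5 reads in knockdown libraries 1, 2 and 3 against 2 in the control, and for Hoxc10 they are 1, 3 and 2 against 1. For Hoxc9 they are 3, 3 and 2 against 0, and for Hoxd10 they are 0, 3 and 2 against 0. Hoxb9 came nearest to a mark, with 0.184, 0.266 and 1.01 FPKM against 0 (q = 0.0529 in library 3 in the authors' deposited table). The same count gives Hoxc8, of number 8, 1, 3 and 9 reads against 1, and Hoxd1 0, 8 and 7 against 1. At this depth a difference in most posterior members was not detectable. The numbers of reads are the smallest that match within 1%, and multiples of them would match as well.

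Summed over classes, paralogs 1 to 3 (7 members) had 72.0, 113 and 76.8 FPKM in knockdown libraries 1, 2 and 3 against 77.4, and paralogs 4 to 8 (15 members) had 6.56, 85.7 and 59.2 against 5.84. Paralogs 9 to 13 (16 members) had 1.41, 3.21 and 3.27 FPKM against 0.886. The middle class was thus far below the anterior class in the control and in library 1, and much nearer to it in libraries 2 and 3. The study's rule called 1 of 6 testable members in the anterior class, Hoxd3, and 7 of 9 in the middle class. The median log2 difference was -0.05, 0.59 and 0.61 in libraries 1, 2 and 3 for the anterior, 0.02, 1.27 and 1.18 for the middle and 0.00, 0.16 and 0.00 for the posterior class, beside 0.00, 0.01 and 0.01 over all features above 0. With the borders moved so that number 4 joined the anterior class, 5 of its 10 testable members and 3 of 5 testable members of paralogs 5 to 9 had risen, so the counts per class depend on where number 4 is placed. No difference between classes was tested.

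In each of the 4 clusters the sums of knockdown libraries 2 and 3 were above the control, while that of library 1 was below it in Hoxb and Hoxd. The Hoxc members summed to 2.13, 22.3 and 16.5 FPKM in knockdown libraries 1, 2 and 3 against 1.35, and the Hoxd members to 1.12, 23.6 and 11.6 against 1.15. These clusters, at a level of a few FPKM in the control, carried 1.60% and 1.37% of the Hox sum there and 11.1% and 11.7% in library 2. The Hoxb members summed to 42.3, 102 and 65.3 FPKM against 47.4, and the Hoxa members to 34.5, 54.1 and 45.9 against 34.2. In Hoxa and Hoxb the levels of paralogs 1 to 3 made up most of the control sum. Counts of members that rose were 1 of 5 testable in Hoxa, 3 of 6 in Hoxb, 2 of 2 in Hoxc and 2 of 2 in Hoxd. Differences between clusters were not tested. Between libraries 2 and 3, 5 of the 8 called members were higher in library 2, with Hoxd3 at 12.5 against 4.90 FPKM as an example, while Hoxa4, Hoxb7 and Hoxc5 were nearly level.

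The genes that work with and upstream of the Hox genes were counted by the study's rule, against the same background of 1.98% and 0.905%. Of 9 PBX, MEIS and PKNOX cofactors 0 rose and 1 fell. Pknox2 had 22.9, 11.7 and 10.3 FPKM in knockdown libraries 1, 2 and 3 against 21.7, and it fell. Meis1, a cofactor gene that is also abundant, had 38.8, 56.8 and 50.5 FPKM against 44.2 and was not marked in any table. Of 12 Cdx genes and other posterior regulators 0 were called, and 5 could be. Cdx1, Cdx2 and Cdx4, which drive posterior Hox genes in the tail bud, had at most 0.198 FPKM in any library, and T, the mesoderm regulator brachyury, had 1.08, 1.01 and 1.11 FPKM against 1.58. Of 7 hindbrain regulators 0 were called, and all 7 could be. Egr2, an activator of Hoxa2 and Hoxb2 in the hindbrain, had 1.16, 0.144 and 0.514 FPKM against 1.55 and was marked lower in library 2.

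Of 18 genes of retinoic acid metabolism and response 0 rose and 1 fell. Cyp26b1, which degrades retinoic acid, had 6.67, 0.645 and 1.08 FPKM in knockdown libraries 1, 2 and 3 against 9.73. Rarb, a receptor gene that retinoic acid itself induces, had 5.59, 19.5 and 9.94 FPKM against 4.77 and was marked higher in library 2 alone. In both genes library 1 lay nearest to the control. Cyp26a1, which was not called, had 14.04, 10.7 and 11.1 FPKM against 18.4. Dhrs3, not called either, had 3.23, 0.701 and 0.704 FPKM against 2.87. Of the 18 genes, 6 were below the control in all 3 knockdown libraries and 2 were above it in all 3. The median log2 difference of the list was -0.14, -0.11 and -0.08 in libraries 1, 2 and 3. A change in retinoic acid signalling was not tested. Of 33 Polycomb and Trithorax genes 2 rose and 0 fell: Bmi1, a subunit of the first Polycomb complex, had 28.5, 49.995 and 43.2 FPKM against 23.7, and Cbx7 had 18.0, 31.1 and 34.5 against 16.1. Among forebrain and midbrain factors, Dmbx1, a midbrain factor, had 1.16, 0.278 and 0.289 FPKM against 1.40 and fell. En2, of the midbrain and hindbrain border, had 0.504, 2.47 and 1.75 FPKM against 0.276 and rose.

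**Figure D4:**
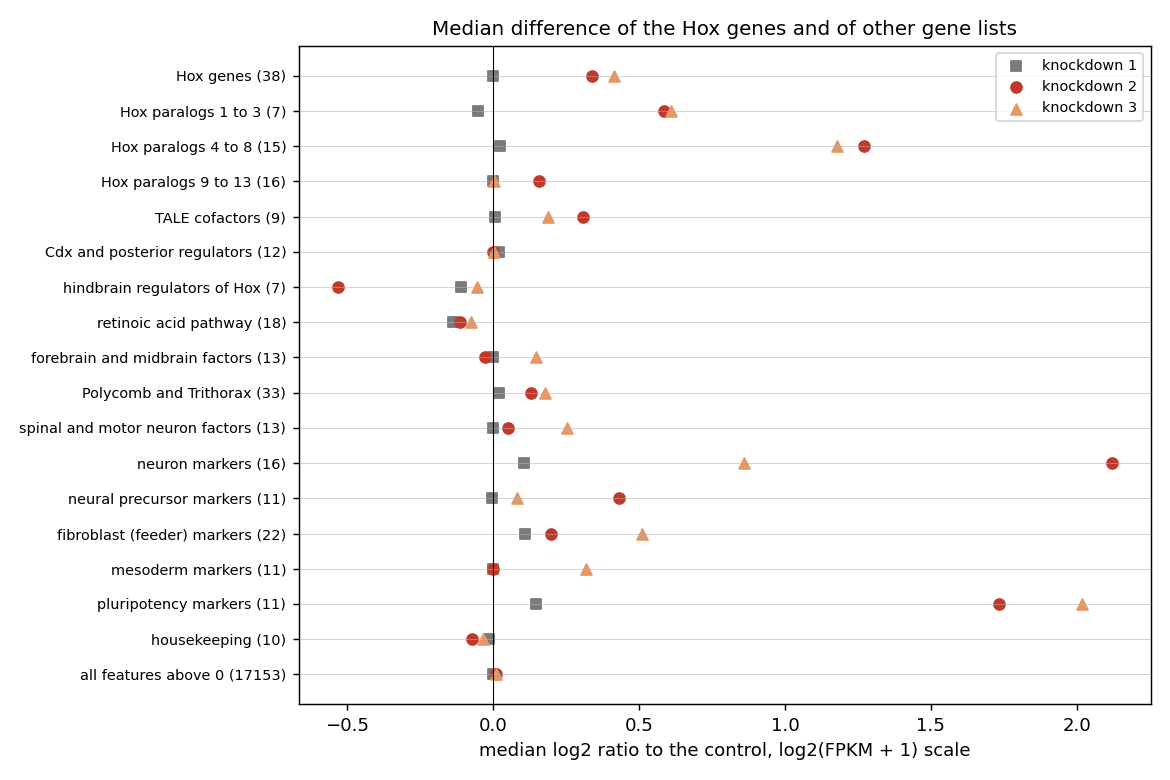
Median log2 difference from the control (log2(FPKM + 1) scale) for the Hox genes, their position classes, the other gene lists and all features above 0, with the number of genes in brackets; each symbol is 1 knockdown library. Library 1 lies between -0.14 and 0.15 in all lists shown, the middle Hox class is at 1.27 and 1.18 in libraries 2 and 3, and the pluripotency and neuron lists also stand to the right in these libraries.

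Markers of other cell types moved in the same libraries. Before differentiation the cells grew on mouse embryonic fibroblast feeders, a cell type with Hox expression of its own, and in bulk RNA more cells of a type and more RNA per cell cannot be told apart. Of 22 fibroblast markers 3 rose (Col5a2, Postn and Lox) and 0 fell, 10 were above the control in all 3 knockdown libraries, and their summed level was 468, 229 and 580 FPKM in knockdown libraries 1, 2 and 3 against 423. Acta2, Tagln and Fn1 carried most of that sum, and without them, an alternative chosen after seeing the data, it was 75.1, 87.8 and 139 FPKM against 70.8, above the control in all 3 knockdown libraries and highest in library 3. The list did not move as one: in library 2, 3 of its markers were marked higher and 3 lower. The lower ones were Acta2 (26.3 FPKM in library 2 against 107), Tagln (51.6 against 160) and Prrx2 (1.44 against 8.29). Within the fibroblast list Col1a1 had 9.19, 13.3 and 23.1 FPKM against 7.70, highest in library 3, and the proteoglycan gene Lum was listed at 0 in the control and in library 3. Of 16 neuron markers 6 rose and 0 fell, with sums of 193, 663 and 326 FPKM against 185. Libraries 2, 3 and 1 stood in this order in the neuron sums as in the Hox sums, but a shared order of 3 libraries does not link neurons to the Hox genes. Of 11 pluripotency markers 8 rose and 0 fell, with sums of 83.7, 337 and 548 FPKM against 61.1, highest in library 3. Of 11 mesoderm markers 1 rose and 0 fell, with sums of 4.43, 10.7 and 15.9 FPKM against 4.07, of which Tcf15 made up 0.420, 7.85 and 10.2 against 0.842, and Mesp1 and Msgn1 were listed at 0 in all 4 libraries. The part of these cell types in the Hox differences was not tested. Gmnn RNA was about as low in library 1, where 0 Hox members were marked, as in library 3, where 8 were. A link between the level of Gmnn and the Hox genes was not tested.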

How the data were processed

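RNA of 3 Geminin knockdown libraries and 1 control library was sequenced on a shared lane. The submitters' processing notes name TopHat, Cufflinks and Cuffdiff and the build mm9; their versions, the annotation and the strandedness: not given in the sources used here. The authors computed FPKM, per the file headers, in 3 tables with 1 knockdown library and the shared control in each. From Cuffdiff come the deposited p-value, the q-value (treated as a score, since some exceed 1) and a natural log ratio, control over knockdown, from which column direction was checked. The 2 files that repeat the marked rows were left out. The control value was the same between any pair of tables in 90.7% to 91.2% of features (tolerance 0.1%), and 6 members did not, so ratios were formed within a table and the control is printed as the mean of the 3.

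The study's rule was applied to the authors' marks. Separately, limma 3.58.1 (R 4.3.3, trended prior variance, Benjamini-Hochberg adjustment, threshold 0.05) was fitted to log2(FPKM + 1), which understates changes of low genes, over 12162 features whose mean FPKM was 1 or more and whose status was usable in each table, with Python 3.11.15, pandas 2.3.3, numpy 2.4.6 and matplotlib 3.10.9 for the rest. It was tested on simulated data. With 3 libraries against 1, the smallest two-sided permutation p is 0.5, so no such test was run. The limma p-values draw on the spread between the knockdown libraries and hold no spread between controls. Each Cuffdiff p-value and q-value compares 1 library with 1, so it measures no spread between the knockdown libraries. Depth is known only relative to the control. Coordinates are 1-based. Alternatives were a pseudocount of 0.1, no filter, no trend, centring, other rules for a call, other class borders, non-overlapping members and leaving out each library. The members and lists were chosen with earlier results of these data known. Members that were called or reached 5 FPKM in any library are given in full, with their neighbours in the cluster. From other lists at most 3 called genes with the largest change are given, or the most abundant. Some others were chosen after their values were seen (Rarb, Cyp26a1, Dhrs3, Egr2, Meis1, T, the Cdx genes, Sox1, Sox2, Pax6, Nes, Col1a1, Lum, Acta2, Tagln, Prrx2, Mesp1 and Msgn1). 1 further feature in the clusters and some genes of the other lists are not reported here, so sums and shares cover the 38 members and not the whole clusters.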

Additional observations from a re-analysis of the deposited data

How the results depend on the processing

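No Hox member was lower by the study's rule and none passed limma in any alternative run, where 0 or 1 of the members fitted had an unadjusted p under 0.05, except without replicate 1, where 10 of 14 did. By the study's rule the count that rose was 8; it was 0 when all 3 tables had to mark a gene, and 4 among the 30 members whose locus overlaps no other feature (Hoxb4, Hoxb7, Hoxb8 and Hoxc4). Leaving out a library gave 0 to 8: 0 without library 2 and 0 without library 3, since both remaining tables then had to mark a gene. With a mean of at least 1 FPKM, 7 of 14 members were higher and 2 lower in all 3 libraries, beside 2778 and 2755 of the 12162 features at that level. The mean is over all 4 libraries, and only 6 members reached 1 FPKM in the control. Members that are high only with knockdown therefore pass, so counts under this filter are partly set by it. Without that filter the counts were 14 and 4 of the 34 members above 0. The median log2 differences depend on the weight of low genes. With a pseudocount of 0.1 they were 1.44 in library 2, 1.42 in library 3 and 0.85 on average (main values 0.34, 0.41 and 0.29), 0.83, 2.23 and 0.24 for the anterior, middle and posterior classes (0.36, 0.76 and 0.05), and 1.29, 0.96 and 1.13 for Hoxb, Hoxc and Hoxd (0.46, 0.26 and 0.36). Among members with a mean of at least 1 FPKM they were 1.98 in library 2, 1.87 in library 3 and 1.36 on average, 1.504 for the middle class, and 0.69, 1.15, 1.72 and 1.58 for Hoxa, Hoxb, Hoxc and Hoxd. These larger medians are likewise partly set by the filter, since members low in the control pass it through the knockdown libraries. With number 4 in the anterior class its median was 0.79. Leaving out each library in turn, the medians ranged from 0.23 (without library 3) to 0.60 (without library 1) for the anterior, 0.58 (without library 3) to 1.23 (without library 1) for the middle and 0.00 (without library 2) to 0.12 (without library 1) for the posterior class. Hoxa ranged from 0.04 (without library 2) to 0.11 (without library 1), Hoxb from 0.30 (without library 3) to 0.63 (without library 1), and Hoxd from 0.23 (without library 3) to 0.41 (without library 1). The mean log2 difference of Hoxa2 was 0.07 and ranged from -0.001975 without library 2 to 0.1208 without library 3. Of 159 values under an alternative, 43 of single genes kept their direction and side of the threshold, and the 16 single-gene values that lost the call were those of the 8 called members without library 2 or 3. Centring on the median over features with a mean of at least 1 FPKM shifted the libraries by -0.02, 0.03 and 0.01. No paired analysis was possible because there was 1 control library for 3 knockdown libraries.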

Other observations

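Other features lie in and beside the Hox clusters. Of 9 inside the clusters, mostly microRNA genes, 8 were listed at 0 in all 4 libraries, among them Mir10a in the Hoxb cluster and Mir10b in the locus shared by Hoxd3 and Hoxd4. A listing at 0 for features this short, or for features that share a locus with a longer gene, can be a failed estimate. Hoxa11as, antisense to Hoxa11, was the exception, with 0.0964 FPKM in knockdown library 3.

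Of 8 features within 100 kb outside the outermost members, 1 rose by the study's rule. Calcoco2, which lies 82.4 kb beyond Hoxb13, had 0.358, 3.98 and 4.30 FPKM in knockdown libraries 1, 2 and 3 against 0.479 in the control, and was marked higher in libraries 2 and 3. Between it and the nearest Hox member Ttll6 was at 0.210 FPKM in library 3 and listed at 0 in the others. At the Hoxd end near Hoxd1, Mtx2, a mitochondrial import gene, had 35.6, 63.7 and 51.3 FPKM against 36.7 and was not marked in any table. On the other side of that cluster Lnp had 10.1, 11.3 and 9.82 FPKM against 8.41, and Evx2, a homeobox gene 8.89 kb beyond Hoxd13, had 0, 0.108 and 0.129 against 0. Evx1, the corresponding gene beside Hoxa13, was at 0.114, 0.0497 and 0.0590 FPKM against 0.0573. Skap1, 96.3 kb beyond Hoxb1, had 0.0265, 0.277 and 0.165 FPKM against 0 and was not called.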
